A study of Mus musculus with 8 samples.

Results

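Subplate marker genes were followed in single nuclei of the embryonic mouse dorsal telencephalon, the tissue that forms the cerebral cortex. The set held 6 genes chosen by symbol (Nr4a2, St18, Lpar1, Nxph3, Nxph4 and Cplx3), and 5 of them were matched in the table of 14166 genes. Cplx3, which codes for a complexin of the synaptic release machinery, was not analysed here. The study compared 4 wildtype and 4 Pantr2 knockout samples, all of strain C57BL/6J at E15.5, and Pantr2 is a long noncoding RNA gene. The knockout is written as Pantr2-/- in the protocol, no other allele or agent is named for either group, and counts of the targeted gene were not analysed here. The samples held 67319 nuclei (33781 wildtype and 33538 knockout), with 7280 to 10921 nuclei and 20446698 to 34083796 UMIs each. A UMI (unique molecular identifier) stands for 1 captured transcript molecule, and the median nucleus of a sample held 2570 to 2905 of them. Levels below are UMIs of a gene scaled to 1000000 UMIs of the same nuclei (CPM). The libraries capture the 3′ end of transcripts, so CPM is not divided by gene length.

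The subplate is a layer of early-born neurons beneath the cortical plate. Its neurons are among the first of the cortex to mature, serve as transient synaptic partners of ingrowing thalamic axons, and in part persist as layer 6b. No single gene marks them at every age, and most of the genes used as markers are also expressed in other cells. Nr4a2 (Nurr1) codes for an orphan nuclear receptor, St18 for a zinc finger transcription factor of the Myt1 family, and Lpar1 for a G protein-coupled receptor of lysophosphatidic acid. Nxph3 and Nxph4 code for neurexophilins, secreted glycoproteins that bind alpha-neurexins at synapses.

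The authors' 7 deposited clusters were used to place the genes. By their markers, cluster 1 was upper-layer-like, cluster 2 subcerebral deep-layer-like, cluster 3 corticothalamic-like, cluster 4 apical progenitor-like and cluster 5 intermediate progenitor-like. Clusters 6 and 7 were left unnamed and were led by Tafa1 and Tafa2 and by Gm32647 and Zfp385b. None of the 7 had one of the 5 genes among its 10 leading genes. A cluster here is a label on nuclei that share many genes, and the levels by cluster are given as a description with no test.

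Each gene had a cluster pattern of its own, and the 5 genes did not peak together. Nr4a2 was highest in the corticothalamic-like cluster 3, where the wildtype samples gave 67.1, 57.3, 47.4 and 64.0 CPM (59.0 ± 8.73, SD, n = 4). It came next in the apical progenitor-like cluster 4, at 32.9 ± 3.27 CPM (SD, n = 4), and the ranges of these clusters did not overlap. The other 5 clusters lay between 9.67 and 12.5 CPM on average, and neighbours in that order overlapped. Cluster 3 held 49.5% and cluster 4 20.1% of the wildtype Nr4a2 UMIs.

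Nxph3 was the gene most restricted to the corticothalamic-like cluster 3. Its wildtype level in cluster 3 was 35.0, 37.8, 43.1 and 42.6 CPM, and no other cluster averaged over 6.10 CPM. Nxph4, its paralogue, was highest instead in the intermediate progenitor-like cluster 5, at 31.7, 37.8, 43.3 and 28.6 CPM. Nxph4 followed in cluster 3 at 15.45 ± 3.33 and in cluster 1 at 11.8 ± 1.78 CPM (SD, n = 4), ranges that overlapped each other and not that of cluster 5. The neurexophilin pair therefore differed in its leading cluster in the same wildtype samples.

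St18 was highest in unnamed cluster 7, where the wildtype samples gave 103, 99.6, 145 and 125 CPM. Cluster 5 came next with 70.2 ± 11.1 CPM and then cluster 3 with 45.1 ± 6.69 CPM (SD, n = 4), and the ranges of cluster 5 and cluster 3 overlapped by a narrow margin. Lpar1 was a progenitor transcript at this age. Its wildtype level in cluster 4 was 185, 197, 202 and 204 CPM, against 29.0 ± 4.13 CPM in cluster 5 and under 7 CPM on average in every other cluster. Cluster 4 held 82.3% of the wildtype Lpar1 UMIs.

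**Figure D1:**
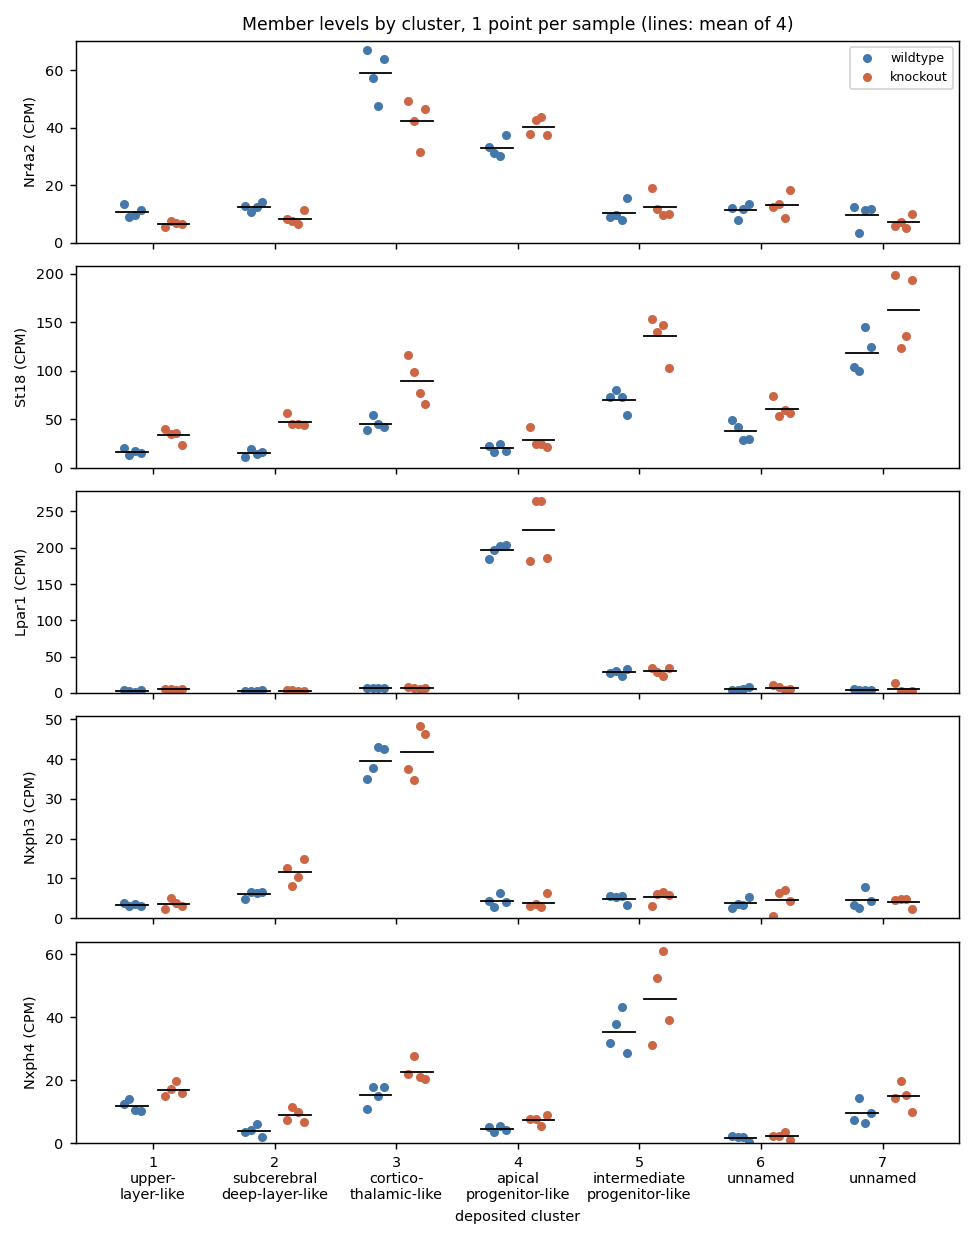
Level of each gene (CPM) in the 7 deposited clusters, with 1 point per sample, wildtype in blue and knockout in orange, and lines at the means of 4 samples. Nr4a2 and Nxph3 peak in cluster 3, Lpar1 in cluster 4, Nxph4 in cluster 5 and St18 in cluster 7.

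The patterns of the genes across the 56 sums of sample and cluster were only loosely alike. Pearson's r of log2(CPM + 1) between pairs ran from -0.19 (Nr4a2 and St18) to 0.55 (Nr4a2 and Nxph3), as a description over sums that share libraries and clusters. Among 10061 genes compared over the same 56 sums, the genes most like Nr4a2 were Slc35f1 (r = 0.87), Adgrb1 (0.86) and Mme (0.84). Those most like Nxph3 were Tle4 (0.90), a transcriptional corepressor used as a corticothalamic marker, Hs3st3b1 (0.89) and Mc4r (0.89). Lpar1 was like Adgrv1 (0.97) and Svil (0.96). St18 was most like St3gal5 (0.81), Osbpl5 (0.81) and Stxbp5l (0.80), and Nxph4 most like St6gal1 (0.87), Celsr2 (0.85) and Bcas3 (0.84).

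Within the apical progenitor-like cluster, wildtype Lpar1 varied with the deposited cell cycle angle, a circular position in radians that orders dividing nuclei. With the circle cut into 4 equal segments, it was 121 ± 25.4 CPM in the wildtype samples from 0 to 1.57 radians, 200 ± 12.2 up to 3.14, 220 ± 6.59 up to 4.71 and 135 ± 9.54 beyond (SD, n = 4). The wildtype range from 3.14 to 4.71 radians did not overlap the other 3. In the knockout samples Lpar1 was 195 ± 71.8, 230 ± 41.4, 230 ± 57.0 and 154 ± 37.1 CPM in the same order (SD, n = 4). There the range from 3.14 to 4.71 radians overlapped the other 3. Wildtype Nr4a2 in the same segments was 24.2 ± 5.89, 33.0 ± 5.83, 36.3 ± 1.70 and 22.9 ± 8.92 CPM, with more overlap than wildtype Lpar1. The outer segments held 989 and 734 nuclei, against 5734 and 3491 in the middle, so their values rest on fewer UMIs.

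Other genes described for the subplate or layer 6b were as scattered. Of a list of 20 such genes, 17 were in the table, and 9 of these had their highest wildtype mean in cluster 3, among them Cdh18 (419 ± 56.3 CPM), a cadherin, and Abca8a (48.4 ± 4.61 CPM), a lipid transporter. Another 3 peaked in cluster 4, 2 each in clusters 5 and 6, and 1 (Pappa2) in cluster 7. Ccn2, a matricellular protein and a classical layer 6b marker, was low, with a highest cluster mean of 4.53 ± 2.05 CPM.

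The first comparison asked whether the genes differed between knockout and wildtype over all nuclei, with UMIs summed per sample and edgeR's quasi-likelihood test adjusted by Benjamini-Hochberg over 13927 genes. Of the 5 genes, 2 rose (St18 and Nxph4) and none fell (none was lower at an unadjusted p under 0.05 either), where 5.26% of all genes tested were called and 1.67% were called higher. St18 was 36.6, 40.1, 42.6 and 36.1 CPM in the wildtype samples and 83.7, 64.9, 65.2 and 62.4 CPM in the knockout samples. Every knockout sample lay above every wildtype sample, and knockout replicate 1 was the highest. In edgeR's test St18 gave a log2 fold change of 0.84 ± 0.10 (SE, adjusted p = 0.0012). It passed in 13 of 13 other edgeR and DESeq2 fits, among them those without each sample in turn.

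Nxph4 was 9.58, 12.9, 11.1 and 10.5 CPM in wildtype and 13.5, 19.6, 18.7 and 14.7 CPM in knockout. The groups did not overlap, and edgeR gave a log2 fold change of 0.61 ± 0.14 (SE, adjusted p = 0.0378). With wildtype replicate 1, 3 or 4 left out, or knockout replicate 2 or 3, Nxph4 was not called (adjusted p from 0.0711 to 0.126). St18 and Nxph4 were 2 of 5 genes whose groups did not overlap, against 11.3% of all genes tested.

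Lpar1 was 43.3, 33.9, 26.5 and 34.3 CPM in wildtype and 60.2, 61.2, 47.4 and 33.9 CPM in knockout. The groups overlapped through knockout replicate 4. Its log2 fold change of 0.57 ± 0.18 (SE) had an adjusted p of 0.0999 in edgeR's test. DESeq2 called it (adjusted p = 0.0259), and so did edgeR with a replicate block (0.0368). Without knockout replicate 4 the adjusted p was 0.0144. The share of nuclei in cluster 4, which holds most Lpar1, averaged 14.1 ± 4.42% in wildtype and 18.4 ± 5.50% in knockout (SD, n = 4; exact two-sided permutation p = 0.286). With every cluster held at a common share, the Lpar1 log2 ratio was 0.19, against 0.87 for St18 and 0.55 for Nxph4.

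Nr4a2 and Nxph3 did not pass over all nuclei. Nr4a2 was 25.5, 21.5, 21.2 and 26.9 CPM in wildtype and 23.8, 20.8, 17.1 and 22.3 CPM in knockout, with a log2 fold change of -0.17 ± 0.11 (SE) and an adjusted p of 0.442 in edgeR's test. Nxph3 was 9.32, 10.8, 13.9 and 12.4 CPM in wildtype and 9.56, 10.0, 13.2 and 15.99 CPM in knockout. Its groups overlapped almost wholly (log2 fold change 0.08 ± 0.19, SE).

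**Figure D2:**
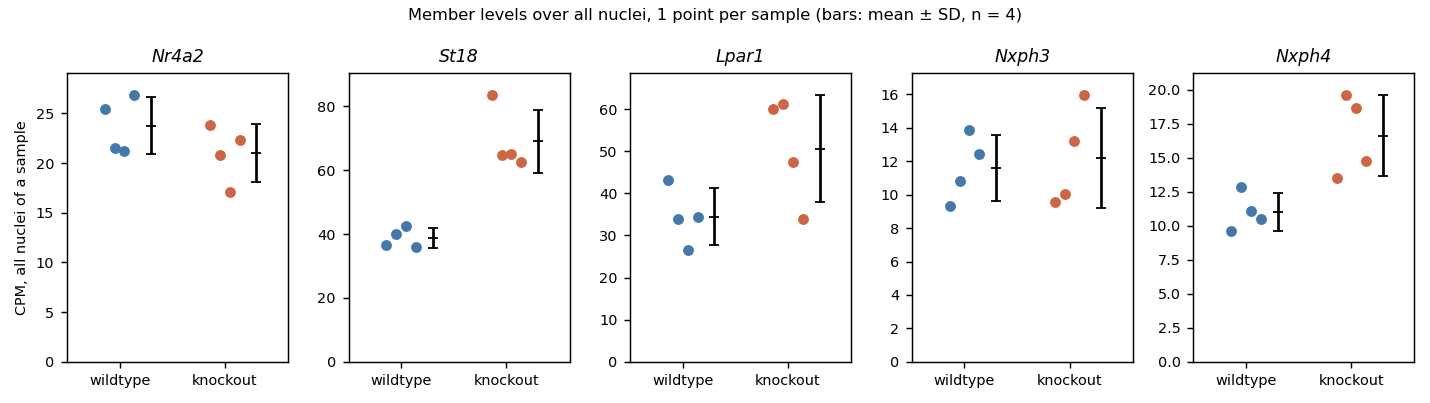
Level of each gene (CPM) over all nuclei of a sample, with 1 point per sample and the mean ± SD of 4 samples beside them. St18 and Nxph4 have no overlap between the groups, and Lpar1, Nr4a2 and Nxph3 do.

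The second comparison placed these differences within clusters, with 1 edgeR fit per cluster adjusted over all genes tested in it. In cluster 1, 2 of 5 genes were called (St18 and Nxph4) against 4.84% of all genes, in cluster 2, 3 of 5 (St18, Nxph3 and Nxph4) against 9.11%, and in cluster 3, 1 of 5 (St18) against 3.36%. In cluster 5, 1 of 5 was called (St18) against 1.77% of all genes. None was called in cluster 4 (0 of 5, with 4.29% of all genes called), cluster 6 (0 of 3, 0.779%) or cluster 7 (0 of 4, 1.03%) by edgeR. At an unadjusted p under 0.05 the fits of clusters 4, 6 and 7 had 3, 1 and 2 of the genes, and DESeq2 called 1, St18, in cluster 6. Every call was upward.

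St18 rose in 4 of the 7 clusters and had a positive log2 fold change in all 7. In cluster 2 it was 11.4, 19.2, 14.4 and 16.6 CPM in wildtype and 56.4, 44.8, 44.7 and 44.3 CPM in knockout. EdgeR gave a log2 fold change of 1.64 ± 0.14 (SE, adjusted p = 1.6e-05) there, the largest of its 7. In cluster 5 the wildtype samples gave 73.3, 79.9, 73.3 and 54.3 CPM and the knockout samples 154, 140, 147 and 103 CPM. The groups were apart in both clusters, and the log2 fold change in cluster 5 was 0.99 ± 0.13 (SE). In cluster 3 St18 went from 45.1 ± 6.69 to 89.5 ± 22.7 CPM and in cluster 1 from 16.4 ± 3.31 to 33.4 ± 7.13 CPM (SD, n = 4). In unnamed cluster 7, where wildtype St18 was highest, the knockout samples gave 199, 124, 136 and 194 CPM and overlapped the wildtype range (log2 fold change 0.47 ± 0.15, SE, adjusted p = 0.256 in edgeR's test). In cluster 6 the adjusted p of St18 in edgeR's test was 0.0947, and 0.00814 with the replicate block.

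Nr4a2 was lower in knockout in the neuronal clusters 1, 2 and 3 and higher in the progenitor cluster 4, but none of these values passed the adjusted threshold. In cluster 3 the samples gave 67.1, 57.3, 47.4 and 64.0 CPM in wildtype and 49.4, 42.3, 31.6 and 46.6 CPM in knockout. EdgeR gave a log2 fold change of -0.45 ± 0.13 (SE), whose adjusted p was 0.0798 without and 0.00457 with the replicate block. It was -0.61 ± 0.17 in cluster 1 and -0.60 ± 0.19 in cluster 2 (SE), with adjusted p of 0.0615 and 0.0636. The block moved these to 0.0941 and 0.0422. Without doublet scores above 0.213 the adjusted p in edgeR's test was 0.165, 0.250 and 0.215 in clusters 1, 2 and 3. In cluster 4 the samples gave 33.2, 31.1, 30.0 and 37.4 CPM in wildtype and 37.9, 42.6, 43.7 and 37.4 CPM in knockout (log2 fold change 0.32 ± 0.10, SE, adjusted p = 0.111 in edgeR's test). The order of clusters 3 and 4 was clear in wildtype and not in knockout, where Nr4a2 averaged 42.5 and 40.4 CPM with overlapping ranges.

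Nxph3 rose in cluster 2, from 4.70, 6.64, 6.39 and 6.68 CPM to 12.7, 8.06, 10.5 and 14.99 CPM, with a log2 fold change of 0.91 ± 0.21 (SE) and an adjusted p of 0.0158 in edgeR's test. The call was lost without wildtype replicate 1, the lowest sample (adjusted p = 0.0563). In cluster 3, its leading cluster, Nxph3 averaged 39.6 ± 3.90 CPM in wildtype and 41.8 ± 6.60 CPM in knockout (SD, n = 4), a difference within the spread of the samples.

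Nxph4 rose in cluster 1 (log2 fold change 0.58 ± 0.14, SE, adjusted p = 0.0300 in edgeR's test) and cluster 2 (1.18 ± 0.28, adjusted p = 0.0186). In cluster 2 it went from 3.52, 4.34, 6.16 and 2.07 CPM to 7.43, 11.6, 9.80 and 6.77 CPM, low levels with no overlap. Both calls were lost without wildtype replicate 1 or knockout replicate 2 or 3, and the call in cluster 1 also without wildtype replicate 3 or 4, with adjusted p from 0.0566 to 0.133. In cluster 3 the adjusted p was 0.0655, and 0.0301 with the replicate block. In cluster 5, where Nxph4 was highest, the knockout samples gave 31.1, 52.3, 60.9 and 39.1 CPM and overlapped the wildtype range.

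Lpar1 was not called in a cluster by the main edgeR fits. In cluster 1, at low levels, its groups did not overlap, with 1.76 to 3.67 CPM in wildtype and 4.45 to 5.66 CPM in knockout. The log2 fold change there was 0.83 ± 0.24 (SE, adjusted p = 0.0637 in edgeR's test). Of 13 other fits 1 called it, that without doublet scores above 0.213 (adjusted p = 0.0274). In cluster 4 its knockout samples fell into a high pair, 264 and 265 CPM, and a pair within or just under the wildtype range, 182 and 186 CPM. EdgeR gave 0.21 ± 0.12 for its log2 fold change there (SE, adjusted p = 0.440).

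**Figure D3:**
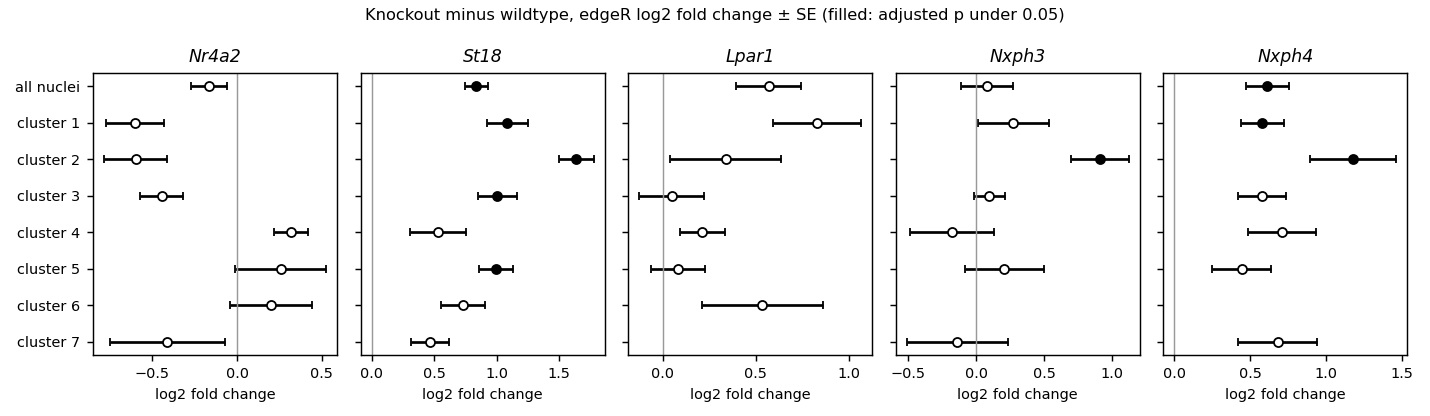
Knockout minus wildtype log2 fold change ± SE of each gene over all nuclei and in each cluster, with filled points at an adjusted p under 0.05. St18 lies above 0 in every fit, from 0.47 in cluster 7 to 1.64 in cluster 2, and Nr4a2 lies below 0 in clusters 1, 2 and 3 and above 0 in cluster 4.

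A call in one cluster and not in another does not show that they differ, so the change in each cluster was tested against that in the rest of the nuclei. None of the 35 tests passed after adjustment (exact two-sided permutation over 70 arrangements, smallest possible p = 0.0286), and 5 reached that smallest p, with an adjusted p of 0.2. A lone test at that p adjusts to 1 over 35, so no single cluster could pass by itself. They were Nr4a2 in cluster 1 (-0.49 on the log2 scale), cluster 3 (-0.59) and cluster 4 (0.72), St18 in cluster 2 (0.86) and Nxph3 in cluster 2 (0.87). In each of these the 4 knockout samples lay on one side of the 4 wildtype samples. The rest of the nuclei holds the other clusters, so values of the same gene in several clusters are not independent. Within cluster 4 alone, edgeR's log2 fold change of Nr4a2 was 0.32.

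Marker lists of cortical cell types moved alongside. The summed level of 7 corticothalamic markers was 7438 to 8680 CPM in wildtype and 9746 to 10460 CPM in knockout. EdgeR called 2 of them over all nuclei, Nfia from 2122 ± 114 to 3369 ± 254 CPM and Sox5 from 2533 ± 188 to 3458 ± 190.5 CPM (SD, n = 4). These had their highest cluster means in clusters 5 and 2. The other markers of that list were not called, among them Foxp2 (log2 fold change 0.002) and Hs3st4 (-0.16). The summed level of 7 upper-layer markers was 4475 to 5328 against 3465 to 4010 CPM. Of 9 interneuron markers in the table, 3 were called lower over all nuclei and none higher in edgeR's test (0 higher at an unadjusted p under 0.05 and 0 with DESeq2). The sums of 4 microglial and of 5 vascular markers were lower in knockout without overlap, at 4.11 to 5.05 against 5.68 to 7.54 CPM and at 12.4 to 13.7 against 15.6 to 16.5 CPM. Of 5 oligodendrocyte-lineage markers Olig1 and Olig2 were called lower, while the sum of the list overlapped. The sums of 8 Cajal-Retzius and of 4 blood markers, and of the progenitor, subcerebral, striatal-type and claustrum-type lists, overlapped between the groups. Whether these differences have a part in the changes of the subplate genes was not tested. In sums over all nuclei, fewer nuclei of a type and less RNA per nucleus are not separated.

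Other subplate and layer 6b genes did not follow St18 and Nxph4. Over all nuclei 1 of 17 tested rose, Pappa2, which codes for a metalloproteinase (log2 fold change 0.39 ± 0.09, SE, adjusted p = 0.0391 in edgeR's test). Another 3 fell, which were Cdh18 (-0.81 ± 0.15), Inpp4b (-0.62 ± 0.15) and Cdh10 (-0.36 ± 0.09). The median log2 fold change of the 17 was -0.15, against 0.00 over all genes tested. The summed level of the list was 862 to 894 CPM in wildtype and 754 to 822 CPM in knockout. In cluster 2, where St18, Nxph3 and Nxph4 rose, Cdh18 went from 47.8 ± 12.7 to 8.41 ± 2.42 CPM and Cdh10 from 208 ± 84.4 to 37.0 ± 13.96 CPM (SD, n = 4). There 2 of 12 list genes rose (Pappa2 and Serpini1) and 4 fell (Cdh18, Cdh10, Inpp4b and Kcnab1). In the other clusters Serpini1 rose in clusters 1 and 3 and Pappa2 in cluster 1, while Cdh18 fell in clusters 1 and 3 and Cdh10 in cluster 5.

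The relatives and partners of the genes gave few calls. Of the 5 other nuclear receptor 4A genes and retinoid X receptor partners, Rxrg fell over all nuclei, from 2.54 ± 1.46 to 0.658 ± 0.0206 CPM (SD, n = 4), and Nr4a3 rose in cluster 2 (log2 fold change 0.59 ± 0.11, SE). Of the other 2 genes of the Myt1 family, none was called over all nuclei by edgeR (1, Myt1, at an unadjusted p under 0.05 and with DESeq2), Myt1 rose in clusters 2 (0.41) and 4 (0.60) and Myt1l in cluster 3 (0.26). In the lysophosphatidic acid pathway 0 of 11 genes rose and 2 fell over all nuclei in edgeR's test (1 higher at an unadjusted p under 0.05, 0 with DESeq2). They were Plppr4 (-0.76 ± 0.18) and Plppr5 (-0.62 ± 0.11), which code for phospholipid phosphatase-related membrane proteins. Plppr1 of the same family rose in clusters 1, 4 and 5 (0.43, 0.59 and 0.44). The lower calls in clusters were Plpp1 (-0.32) and Plpp3 (-0.38) in cluster 1, Plppr4 (-1.70) and Plppr5 (-0.93) in cluster 2 and Plpp3 (-0.64) in cluster 3. Of 5 neurexophilin and neurexin genes none was called by edgeR or DESeq2 over all nuclei or in a cluster, and at an unadjusted p under 0.05 there were 0 over all nuclei and up to 2, all lower, in a cluster. Their summed level was nonetheless lower in knockout without overlap, at 2679 to 3452 against 3598 to 4018 CPM. Of 10 complexin and SNARE genes none was called over all nuclei by edgeR or DESeq2, and 3 were lower at an unadjusted p under 0.05. The sum of these 10 was also lower without overlap, at 1302 to 1488 CPM in knockout against 1504 to 1663 CPM in wildtype. The sums of the nuclear receptor, Myt1 family and lysophosphatidic acid lists overlapped between the groups. In cluster 2, Syt4 fell by 1.03 on the log2 scale and Cplx2, another complexin, rose by 0.39. Snap25, a SNARE protein, rose by 0.27 in cluster 1 and fell by 0.33 in cluster 3.

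St18 also stood out by its surroundings on the chromosome. The gene lies on chromosome 1, from 6487231 to 6860940 on the plus strand (GRCm38, GENCODE M21), 35.7 Mb from Pantr1, a noncoding gene of the same chromosome. Of 27 other genes tested within 5000000 bases of St18, 11 (40.7%) were called over all nuclei by edgeR, 2 higher and 9 lower, against 5.26% of all genes. The lower genes included Mcmdc2 (-2.38 ± 0.17), Adhfe1 (-1.78 ± 0.17) and Xkr4 (-0.87 ± 0.09), and the higher ones were Sntg1 (0.47 ± 0.06) and Vcpip1 (0.36 ± 0.06, all log2 fold changes ± SE). Whether the rise of St18 belongs to a difference of this whole stretch of chromosome 1 between the groups was not tested. The same window held 1 of 30 genes called around Nr4a2 (chromosome 2, 57106830 to 57124003, minus strand) and 2 of 48 around Lpar1 (chromosome 4, 58435255 to 58553898, minus strand). It held 2 of 106 around Nxph3 (chromosome 11, 95509845 to 95514570, minus strand) and 4 of 77 around Nxph4 (chromosome 10, 127525473 to 127534559, minus strand).

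Co-detection asked whether single nuclei carried several of the genes. To give all nuclei the same depth, 1400 UMIs were drawn at random from each. At that depth 57018 nuclei had no UMI of the 5 genes, 9675 had UMIs of 1, 614 of 2 and 12 of 3. The 626 nuclei with 2 or more were 0.659%, 0.512%, 0.640% and 0.706% of the wildtype samples and 1.29%, 1.33%, 1.34% and 0.907% of the knockout samples. The groups did not overlap (exact two-sided permutation p = 0.0286, the smallest possible, adjusted p = 0.0571 over 8 tests). Without thinning, the shares averaged 2.55% and 4.37%. Without St18 counted, they were 0.337 ± 0.117% and 0.546 ± 0.113% (SD, n = 4; exact permutation p = 0.0571), a narrower gap with overlap.

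Over all nuclei, the number of such nuclei was close to that given by the levels of the single genes. If the genes were detected independently within each sample and cluster, 635 nuclei would carry 2 or more, and 626 were observed, a ratio of 0.985. By cluster the ratio was 0.872 (cluster 3), 1.04 (cluster 4) and 0.994 (cluster 5). It was 1.23, 1.02, 0.658 and 0.910 in clusters 1, 2, 6 and 7, which held 35, 24, 5 and 28 such nuclei. Most nuclei gave no UMI of a gene at this depth, so an excess confined to few nuclei may not be detectable. Co-detecting nuclei had a median of 2932 UMIs before thinning, against 2746 in nuclei with none. Over all nuclei 24.4% of them lay above a deposited doublet score of 0.213, against 25.1% of nuclei with none. By cluster, this share was higher in co-detecting nuclei in clusters 2, 3, 6 and 7 and lower in clusters 1, 4 and 5. It was 57.1% against 33.6% in cluster 7 and 33.3% against 24.7% in cluster 2, and 21.5% against 24.6% in cluster 4.

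**Figure D4:**
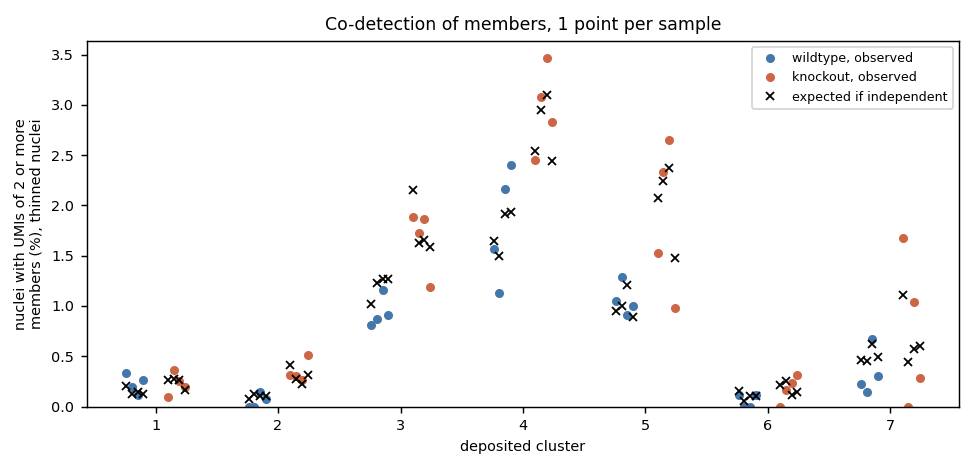
Share of nuclei (%) with UMIs of 2 or more of the genes after thinning, by cluster, with 1 point per sample, and crosses for the share expected if genes were detected independently in that sample and cluster. The crosses follow the observed shares from cluster to cluster, and the knockout samples of cluster 4 sit at 2.45% to 3.47%.

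The pairs that met in a nucleus followed the clusters. In cluster 4, which held 265 of the 626 nuclei, 163 (61.5%) carried Nr4a2 with Lpar1. In cluster 5, 55 of 122 (45.1%) carried St18 with Nxph4. The 147 nuclei of cluster 3 were spread over more pairs, with 32 for St18 and Nxph3 and 30 for Nr4a2 and Nxph3. With clusters as strata, the Mantel-Haenszel log2 odds ratio of a pair averaged between -0.63 and 0.25 over the 8 samples for the 8 pairs with a value in every sample, and no pair was above 0 in all 8. Nr4a2 and Lpar1 gave 0.25 ± 0.60, St18 and Nxph4 0.14 ± 0.52 and St18 and Lpar1 -0.22 ± 0.37 (SD over 8 samples). Without strata Nr4a2 and Lpar1 gave 0.97 and St18 and Lpar1 -0.85. The genotypes differed most for Lpar1 and Nxph4, by -0.995 on the log2 scale (exact permutation p = 0.0286, adjusted p = 0.229 over 8 pairs).

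The last comparison asked what else marked nuclei that carried 2 or more of the genes, set against nuclei of the same sample and cluster with none, with sample as a block in edgeR and the 5 genes left out. In cluster 4, chosen because it held the most such nuclei, 265 nuclei were set against 7623. Of 6969 genes 64 were called (0.918%), 4 higher and 60 lower. The co-detecting nuclei of a sample gave only 18200 to 92400 UMIs. A gene with few UMIs there could pass the count filter through the larger sums of nuclei with none. The split by direction also moved with the processing, to 10 higher and 37 lower with library totals alone and 166 and 257 without thinning. It is not read as a result. Sema5a, a semaphorin, was higher at 1056 ± 360 against 597 ± 95.5 CPM (SD, n = 8), with a log2 fold change of 0.67 ± 0.11 (SE). It was called in 13 of 13 other fits. Thsd4 was higher by 0.56 ± 0.15 and was called in 8 of 13 other fits, not in that without St18 (adjusted p = 0.206 in edgeR's test). Adamts19, a metalloproteinase, had a log2 fold change of -2.74 ± 0.41 (13.5 against 122 CPM), from 7 UMIs in the co-detecting nuclei. It was called in 12 other fits, and DESeq2 gave no adjusted p. Ildr2, Nudcd2, Pappa and Abca1 were lower too, each from 7 or fewer UMIs in the co-detecting nuclei, and only 1 to 8 of their 13 other fits called them. Without thinning Nudcd2 (-0.38) and Abca1 (-0.08) were not called. None of 7 other subplate genes tested there was called by edgeR or DESeq2, and 1 was lower at an unadjusted p under 0.05.

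In the corticothalamic-like cluster 3, examined after the levels by cluster were seen, 147 co-detecting nuclei were set against 9369. The co-detecting nuclei had a median of 3296 UMIs before thinning against 3013, and 30.6% against 24.6% of them lay above a doublet score of 0.213. The part of these differences in the calls was not tested. Cdh18 was 1617 ± 742 CPM in co-detecting nuclei and 220 ± 58.0 CPM in the others (SD, n = 8), higher in 8 of 8 samples, with a log2 fold change of 2.51 ± 0.14 (SE). Cdh10, another cadherin, was 1288 ± 503 against 343 ± 54.8 CPM and Kcnip4, a potassium channel-interacting protein, 2731 ± 1025 against 600 ± 136 CPM. The lipid transporter Abca8a was 147 ± 80.8 against 39.7 ± 9.95 CPM, higher in 7 of 8 samples. These 4 genes were called in 13 of 13 other fits, including one in which St18 did not count as a member. In that fit the log2 fold changes of Cdh18, Kcnip4 and Cdh10 were 1.17, 0.82 and 0.96, against 2.51, 1.83 and 1.53 with St18 counted, and that of Abca8a was 1.41 against 1.61. The median of all genes tested was also lower in that fit, at -0.67 against -0.30 with St18 counted.

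Of 7 corticothalamic markers tested 4 were lower in the same nuclei, and of 5 subcerebral markers 3 were lower and 1, Crim1, higher. Foxp2 (-1.64 ± 0.17) and Sox5 (-0.79 ± 0.12) of the corticothalamic list were called lower in 13 of 13 other fits. So was Rorb (-1.27 ± 0.20), from the list of upper-layer markers, and all 3 code for transcription factors. Ldb2 (-1.07 ± 0.19) and Bcl11b (-0.72 ± 0.15) were called in 12 and 11 of them, and Fezf2 (-1.55 ± 0.44) in 8, and with plain library totals Bcl11b, Fezf2 and the corticothalamic markers Hs3st4 and Nfia were not called. Crim1 had a log2 fold change of 1.10 ± 0.25 (SE). Tle4 did not pass (-0.07 ± 0.12, adjusted p = 0.835 in edgeR's test), and its sign turned with the processing. It was 0.25 with plain library totals, 0.26 with DESeq2 and 0.20 without thinning, where edgeR called it higher (adjusted p = 0.00641). Of 13 other subplate genes tested, 3 were higher (Cdh18, Cdh10 and Abca8a) and none lower (1 lower at an unadjusted p under 0.05, 0 with DESeq2), with a median log2 fold change of 1.02 against -0.30 over all genes.

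The counts in this comparison depended on the scaling. With TMM factors 284 of 6879 genes were called (4.13%), 50 higher (17.6% of the calls) and 234 lower, and the median of all genes was -0.30. With plain library totals, summed over the genes that passed the count filter, 122 were called, 86 higher (70.5%) and 36 lower, and the median was -0.01. Cntn5 (1.21), Caln1 (0.78), Epha7 (0.73), Nrg1 (0.68), Ehbp1 (0.58), Sgcz (0.56) and Lrrc4c (0.46) were higher on both scales. None of these 7 was called by edgeR when St18 was not counted. In that fit the median of all genes was -0.67, with 16 genes called higher and 621 lower. Cntn5, Nrg1 and Lrrc4c were then below 0 but above that median (-0.23, -0.42 and -0.02). Caln1, Epha7, Ehbp1 and Sgcz were at 0.60, 0.10, 0.31 and 0.11 (adjusted p from 0.0684 to 0.804). How much of these drops comes from the scaling was not tested. Mtus2, Adamts20, Aim2, Star and Fam204a had 0 UMIs among the 205800 drawn from the co-detecting nuclei, which allows up to 14.6 CPM. With nuclei of cluster 3 both chosen and counted without thinning, a larger set, Mtus2 was at 0.43, Aim2 at -0.41, Star at -0.18 and Fam204a at -0.14, none of them called by edgeR, and Adamts20 at -1.04 was called lower (adjusted p = 0.0013). None of these 5 was called by edgeR with plain library totals.

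**Figure D5:**
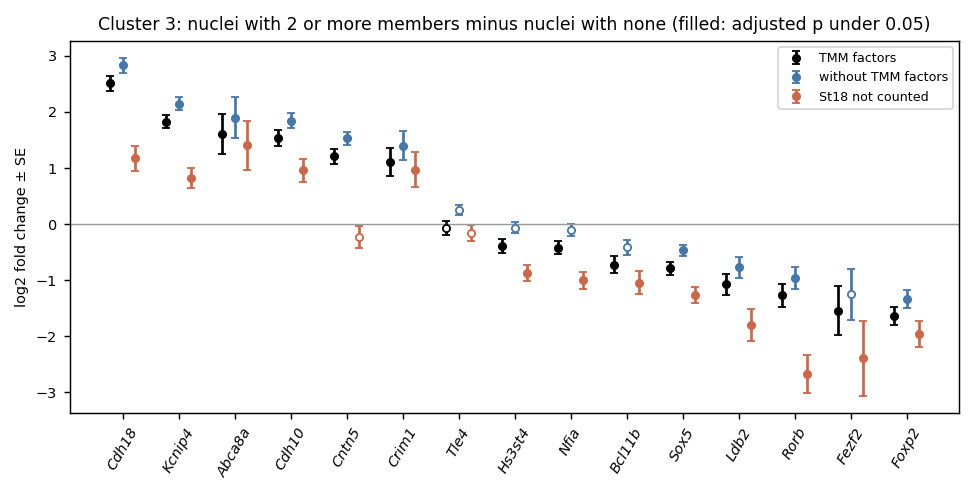
Log2 fold change ± SE between nuclei of cluster 3 with 2 or more of the genes and nuclei with none, with TMM factors, with library totals alone, and with St18 not counted. Cdh18, Kcnip4, Abca8a and Cdh10 lie above 0 and Foxp2, Rorb and Sox5 below 0 in all 3 versions, with filled points at an adjusted p under 0.05.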

How the data were processed

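Single-nucleus libraries (10x Genomics 3′ version 2, per the labels' protocols) were deposited by the authors as whole-number UMI counts per gene and nucleus, not normalised. The deposited tables of nuclei give the authors' cluster, doublet scores (a score with no fixed unit) and a cell cycle angle. Kallisto, bustools and mm10 are named in the submitters' processing notes; versions and filters are not given in the sources used here. The members and gene lists were chosen with earlier results of these data known. Counts of the targeted gene are not reported here.

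All deposited nuclei were kept, and 510 of 66806 distinct barcodes occurred in 2 or more libraries. All 8 samples carry 1 library date. Doublet scores reached 0.5 at most and no further caller was run. Nothing in the labels says that samples are separate embryos, so p-values measure the spread between these samples only. Intervals and floors cover counting error only.

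Sums of UMIs were made for each sample, both over all its nuclei and within clusters with at least 50 nuclei in every sample, and tested with edgeR 4.0.16 in R 4.3.3 (TMM, filterByExpr, glmQLFit, glmQLFTest, Benjamini-Hochberg over all genes tested, threshold 0.05). Printed CPM carry no TMM factors. Lpar1 was not tested in cluster 7, nor Nxph3 and Nxph4 in cluster 6, for low counts. Clusters were named from lists with at least 3 markers at 10 CPM and 1.5 times the median elsewhere. Tested on simulated counts, the fit over all nuclei (13927 genes) recovered 94% of 200 genes altered by 1 on the log2 scale. The fits of co-detecting nuclei recovered 46.5% in cluster 4 (6973 genes) and 18% in cluster 3 (6884 genes), with 6 and 7 false calls.

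Named genes were the members, at most 5 called genes per list and direction in a fit, the 3 genes most like each member (2 are given for Lpar1), and 10 higher and 5 lower genes of co-detecting nuclei with the same direction in 8 samples. Tle4 and the alternatives of single list genes were added after their values were seen. Gene positions come from GENCODE M21 by Ensembl ID. Only Lpar1 overlaps annotated genes (Mir3095 and Gm12577), neither in the table. Of the 31-base words of member transcripts, 0.268% for Nr4a2, 0.0231% for Lpar1 and 0% for the others occur in transcripts of other genes.

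The samples share replicate numbers in the labels. Within each number, the deviations from the 2 group means correlated across genes at 0.160 to 0.488, each above 0.1. On that ground the numbers were taken to pair the samples, and the fit with the replicate block was an alternative. Between unlike numbers the correlations ran from -0.432 to 0.380, and 6 of 8 samples correlated best with their own number. Wildtype replicate 3 was closer to knockout replicate 4 (0.380) than to knockout replicate 3 (0.244). The pairing is therefore not certain, nor are calls made only with the block. Other alternatives were DESeq2 1.42.0, no filter, an Xist covariate (5 samples had Xist UMIs and 3 had 0), fixed cluster shares, fewer or more UMIs per nucleus, doublet scores and leaving out each sample.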

Additional observations from a re-analysis of the deposited data

Results flagged for a closer look

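In groups of 4 samples, 9 of 80 had a sample set apart from the other 3 by Dixon's limit, where chance flags about 1 in 20 groups. Knockout replicate 1 was the high sample for St18 over all nuclei (83.7 CPM, group median 65.0), in cluster 2 (56.4 CPM, median 44.7) and in cluster 4 (42.5 CPM, median 24.4), and for Lpar1 in cluster 7 (13.3 CPM, median 2.47). St18 was still called without it over all nuclei and in cluster 2. Wildtype replicate 1 was low for Nxph3 in cluster 2 (4.70 CPM, median 6.52), and the call there is lost without it. The others were Nr4a2 in cluster 7 in wildtype replicate 2 (3.46 CPM, median 11.4), Nxph3 in cluster 5 in wildtype replicate 4 (3.35 CPM, median 5.34), Nxph3 in cluster 7 in knockout replicate 4 (2.40 CPM, median 4.67) and Nxph4 in cluster 6 in wildtype replicate 4 (0.361 CPM, median 2.05).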

How the results depend on the processing

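Over all nuclei, 2 of the genes were called. DESeq2 and the replicate block each gave 3, leaving out single samples 1 to 3, and fixed cluster shares 0, in an exact test whose smallest p of 0.0286 adjusts to 0.0714 when 2 of 5 genes reach it. In cluster 1, where 2 were called, leaving out samples gave 1 to 3. In cluster 2, where 3 were called, it gave 1 to 4. In cluster 3, where 1 was called, DESeq2, the Xist covariate and the loss of nuclei with doublet scores above 0.213 each gave 2, the replicate block gave 3 and leaving out samples 1 to 2. In cluster 6, where 0 were called, DESeq2 gave 1, the block 1 and leaving out samples 0 to 1. The replicate block changed no call of a member beyond those of Lpar1 over all nuclei, Nr4a2 in clusters 2 and 3, Nxph4 in cluster 3 and St18 in cluster 6. With it the share of co-detecting nuclei differed by 0.587 points, in a sign-flip test that cannot pass with 4 pairs.

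Genes called in co-detecting nuclei of cluster 4 numbered 64, with 211 without a filter, 24 with DESeq2 (8 higher and 16 lower), 423 without thinning, 47 with library totals (10 higher and 37 lower) and 41 to 64 without single samples. In cluster 3 they numbered 284, with 441, 103 (82 higher and 21 lower), 823 and 122 in that order, 637 with St18 not counted (16 higher and 621 lower) and 204 to 266 without single samples. The cause was not tested.

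Reversed values were Nxph3 over all nuclei, at -0.085 to 0.193 without single samples and below 0 without wildtype replicate 1 (-0.024) or knockout replicate 4, and the difference in co-detection with at least 3 genes in cluster 2 (0 points) and cluster 5 (-0.00615 points) and without St18 in cluster 5 (-6.0e-04 points). Without thinning, Lpar1 with Nxph4 gave 0.094 and Mtus2 0.43. Tle4 in cluster 3 gave 0.25 with library totals, 0.26 with DESeq2 and 0.199 without thinning. With St18 not counted, Cntn5 gave -0.23, Nrg1 -0.42 and Lrrc4c -0.019 in cluster 3, where the median of all genes was -0.67. The comparison of co-detecting nuclei with at least 3 genes was not run, since 12 nuclei carried 3. Depth limits Nxph3, Nxph4 and Lpar1 outside their leading clusters, where a cluster held 15 to 395 UMIs of a gene per genotype.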
